A study of Homo sapiens with 4 samples.

Results

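Aminoacyl-tRNA synthetases are the enzymes that join each amino acid to its transfer RNA (tRNA). Genes were taken from the series' expression table by symbol: the letter of an amino acid followed by ARS, alone or with 1 or 2, together with EPRS1, the phenylalanine subunits FARSA and FARSB, and the scaffold genes AIMP1, AIMP2 and EEF1E1. This gave 38 of 26603 genes: 18 for cytosolic enzymes, 15 for mitochondrial enzymes, 2 for enzymes of both compartments (GARS1 and KARS1) and 3 for scaffold proteins. SARS2 and VARS2, the mitochondrial serine and valine enzymes, were not analysed here. The cells were PLC8024, an established human liver cancer line, with 2 control libraries and 2 libraries of drug-treated cells. No genetic change is given for either group, and the drug, its dose, its duration and the vehicle go unnamed in the labels. Both groups are the same cell line. Whether the libraries are separate cultures is not stated, and the p-values therefore reflect just the spread between these libraries, which may be technical.

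Each synthetase recognises its amino acid and the matching tRNAs, spends ATP to activate the amino acid and transfers it to the tRNA, and the ribosome then relies on that pairing to read the genetic code. The cytosol and the mitochondria each need charged tRNAs, and most mitochondrial enzymes come from separate nuclear genes whose symbols end in 2. GARS1 and KARS1 make enzymes for both places. Several cytosolic enzymes sit with AIMP1, AIMP2 and EEF1E1 in a multi-synthetase complex. The transcription factor ATF4 is known to raise many cytosolic synthetase genes when cells run short of amino acids.

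Levels are FPKM, reads scaled for exon length and for the library total. Recovered gene reads totalled 28526098 and 38611635 for the controls against 40279560 and 38685856 with drug, and the 37 members that passed the filter on low values had 303 to 21286 reads in each library. Of 10 hepatocyte genes 7 reached 1 FPKM, with TTR and APOB at or near 0 and AFP below 0.45 FPKM in all 4 libraries. The summed hepatocyte genes, not tested as a sum, came to 626 and 618 FPKM in the controls against 366 and 345 FPKM with drug. FGB alone was at 556 and 549 FPKM in the controls against 295 and 274 FPKM with drug, while HNF4A was at 22.5 and 22.3 FPKM in the controls against 25.4 and 25.5 FPKM with drug and FOXA2 at 13.5 and 12.96 FPKM against 15.4 and 15.7 FPKM. The part of these markers in the synthetase values was not tested. Of 5 fibroblast genes none reached 1 FPKM. Among endothelial genes PECAM1 was at 4.66 and 4.11 FPKM in the controls against 2.09 and 2.23 FPKM with drug, with VWF and CDH5 at or near 0.

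Cytosolic synthetase genes were the more abundant class in all 4 libraries. Their median level was 31.7 and 32.9 FPKM in the control libraries and 32.5 and 32.9 FPKM in the drug libraries. The mitochondrial median was 6.05 and 6.36 FPKM in the controls against 6.499 and 6.393 FPKM with drug. Summed over members, the cytosolic class exceeded the mitochondrial class 3.16-fold and 3.14-fold in control and 3.13-fold and 3.12-fold in drug libraries, so the balance between the compartments differed little among libraries. The mitochondrial class lacks SARS2 and VARS2, which were not analysed here, while the cytosolic class includes SARS1 and VARS1. NARS1, the asparagine enzyme, was the highest cytosolic gene at 116 and 113 FPKM in the controls against 111 and 107 FPKM with drug. EPRS1, whose protein carries the glutamate and proline enzymes in a single chain, followed at 105 and 104 FPKM in the controls against 97.4 and 94.0 FPKM with drug. At the low end of the detected cytosolic genes was CARS1, the cysteine enzyme. In the mitochondrial class IARS2, the isoleucine enzyme, stood far above the rest at 104 and 102 FPKM in the controls against 98.2 and 97.8 FPKM with drug. The lowest was FARS2, the phenylalanine enzyme, at 2.20 and 2.10 FPKM in the controls against 2.14 and 2.17 FPKM with drug. FARS2 did not separate the groups. KARS1, the lysine enzyme of both compartments, was at 53.9 and 56.4 FPKM in the controls against 57.2 and 55.7 FPKM with drug, which overlapped.

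**Figure D1:**
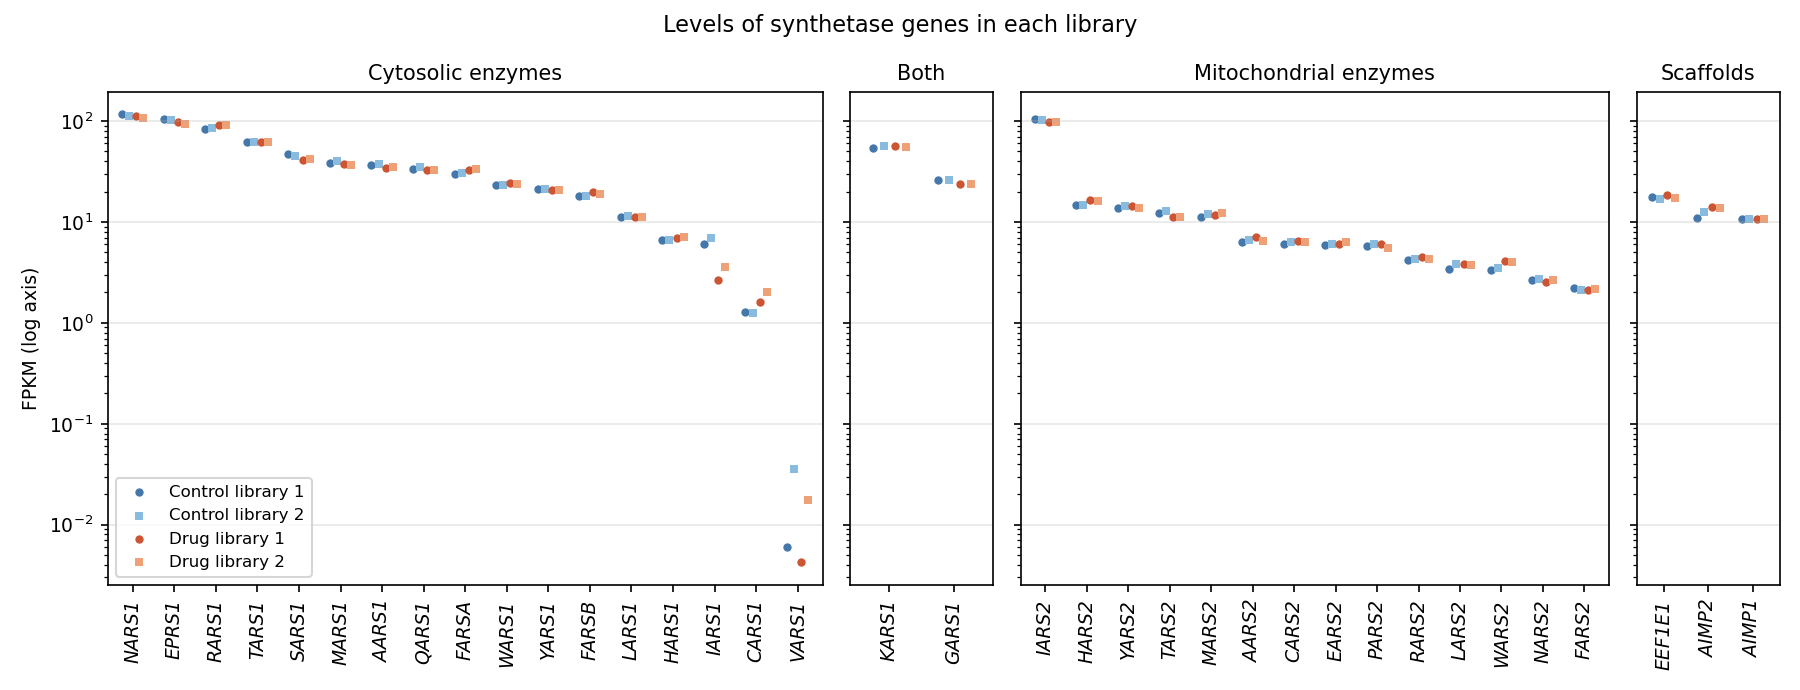
FPKM on a log axis for 36 of the 38 genes, in 4 panels by class (Both stands for enzymes of both compartments) and sorted by control mean; blue points are control and red or orange points drug libraries, circles library 1 and squares library 2. The 4 points of most genes lie close together, IARS1 and CARS1 separate control from drug libraries, and VARS1 lies below 0.04 FPKM in all 4 libraries.

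These levels depend on the exon length used for each gene. For 23 of the 38 genes the length implied by the deposited values was within 10% of the GENCODE 29 exon length, but for 10 it was more than 1.5 times as long. The implied length of IARS1 was 22419 bases against 7401 in GENCODE 29, and that of GARS1 was 17367 against 4152. The GENCODE 29 values here and below keep all recovered reads, which were not recounted on GENCODE 29 exons. They are too high for a gene if some of its reads fall outside those exons, which was not tested. On this scale the control mean of GARS1 was 109.6 FPKM instead of 26.2, and that of IARS1 19.6 FPKM instead of 6.48. This rescaling can shift the order of genes by level and leaves the ratio between libraries for 1 gene unchanged. A recount of reads could change that ratio and was not made.

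Cytosolic and mitochondrial genes for the same amino acid were set side by side in 16 pairings, with EPRS1 paired to both EARS2 and PARS2 and FARS2 to both FARSA and FARSB. The cytosolic gene was higher in all 4 libraries in 13 pairings, and the mitochondrial gene was higher in all 4 in the other 3. On GENCODE 29 lengths the split in control was also 13 against 3. The widest gap on the deposited lengths was for asparagine, where NARS1 was 44.3-fold and 42.1-fold above NARS2 in control and 43.8-fold and 40.4-fold above it in drug libraries; on GENCODE 29 lengths the control ratio was 8.31, below that of EPRS1 to PARS2, which was 17.1. For tyrosine the control ratio of YARS1 to YARS2 was 1.51. The mitochondrial gene was the higher for histidine, cysteine and isoleucine. HARS1 reached 0.456 and 0.445 of HARS2 in control and 0.424 and 0.436 in drug libraries. CARS1 reached 0.211 and 0.195 of CARS2 in control and 0.248 and 0.321 in drug libraries. IARS1 was 0.0579 and 0.0683 of IARS2 in control and 0.0271 and 0.0368 in drug libraries, so the isoleucine pair was the most unequal in this direction. On GENCODE 29 lengths the control ratios were 0.816 for histidine, 0.203 for cysteine and 0.192 for isoleucine. No test was made between genes.

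**Figure D2:**
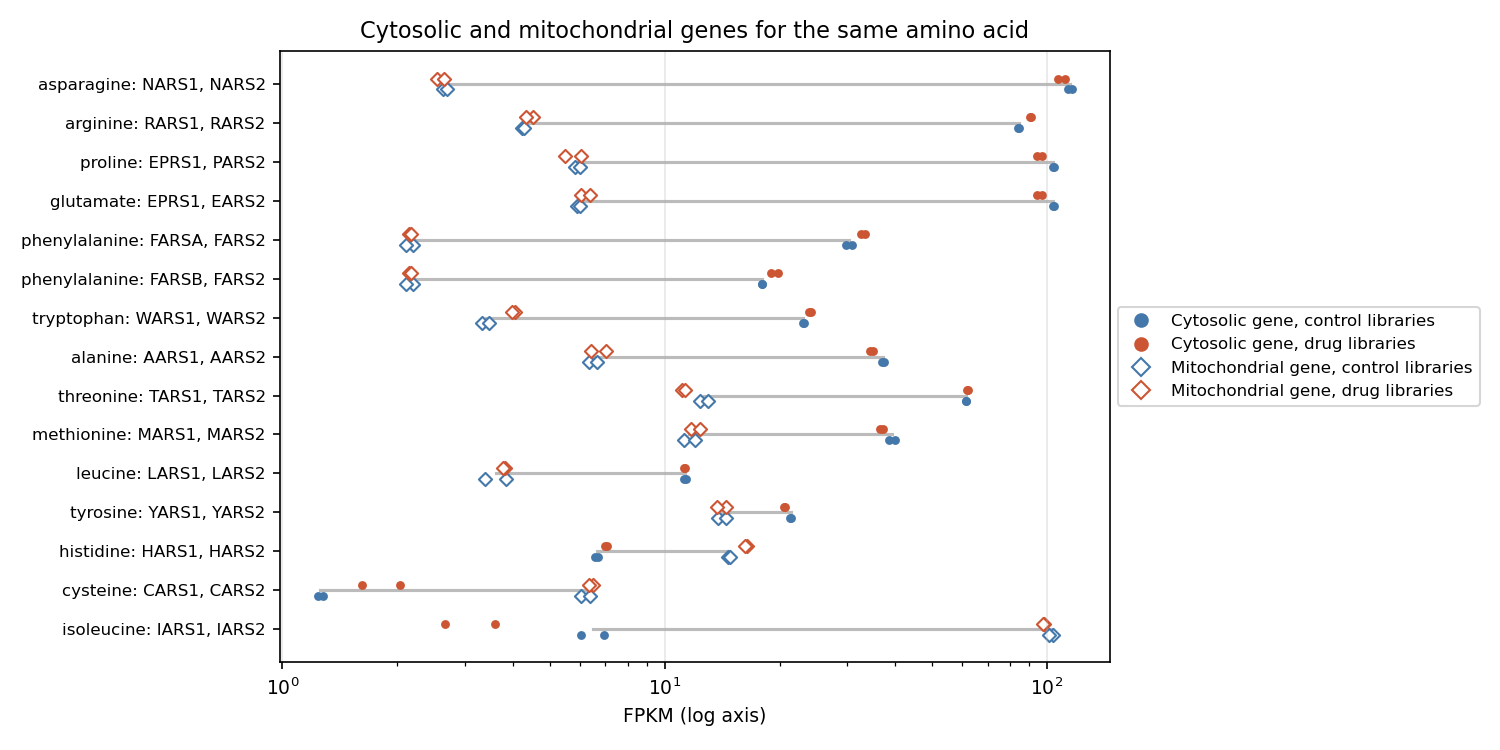
FPKM on a log axis for each cytosolic gene (filled circles) and mitochondrial gene (open diamonds) that serve the same amino acid, for 15 of the 16 pairings, in control (blue) and drug (red) libraries; grey lines join the control means. In the bottom 3 pairings, histidine, cysteine and isoleucine, the diamonds lie to the right of the circles.

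The comparison of drug with control asks which transcripts differ after treatment. Among the 37 tested members HARS2 rose with drug and IARS1, SARS1, GARS1 and TARS2 fell, and the other 32 did not pass. The fall of IARS1, to 0.483 of its control mean, was the only change past 2-fold, and 35 of the 37 members had a log2 fold change of less than 0.25 in size. The test was limma on log2(FPKM + 1) across 11227 genes, p-values adjusted by Benjamini-Hochberg and called under 0.05. Over all tested genes 7.78% were called higher and 6.02% lower, 13.8% in all, so 1 and 4 of 37 lie near the background and are not a result about the family. With 1 added to each FPKM, the log2 fold changes understate the change of low genes. By class, 0 of 17 cytosolic genes were called higher and 2 lower (IARS1 and SARS1), 1 of 15 mitochondrial genes higher (HARS2) and 1 lower (TARS2), 1 of the 2 genes of both compartments lower (GARS1), and none of the 3 scaffold genes either way. The median log2 fold change was -0.01 in the cytosolic and 0.04 in the mitochondrial class, beside 0.04 over all tested genes. In bulk RNA fewer cells of a kind and less RNA per cell cannot be told apart.

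**Figure D3:**
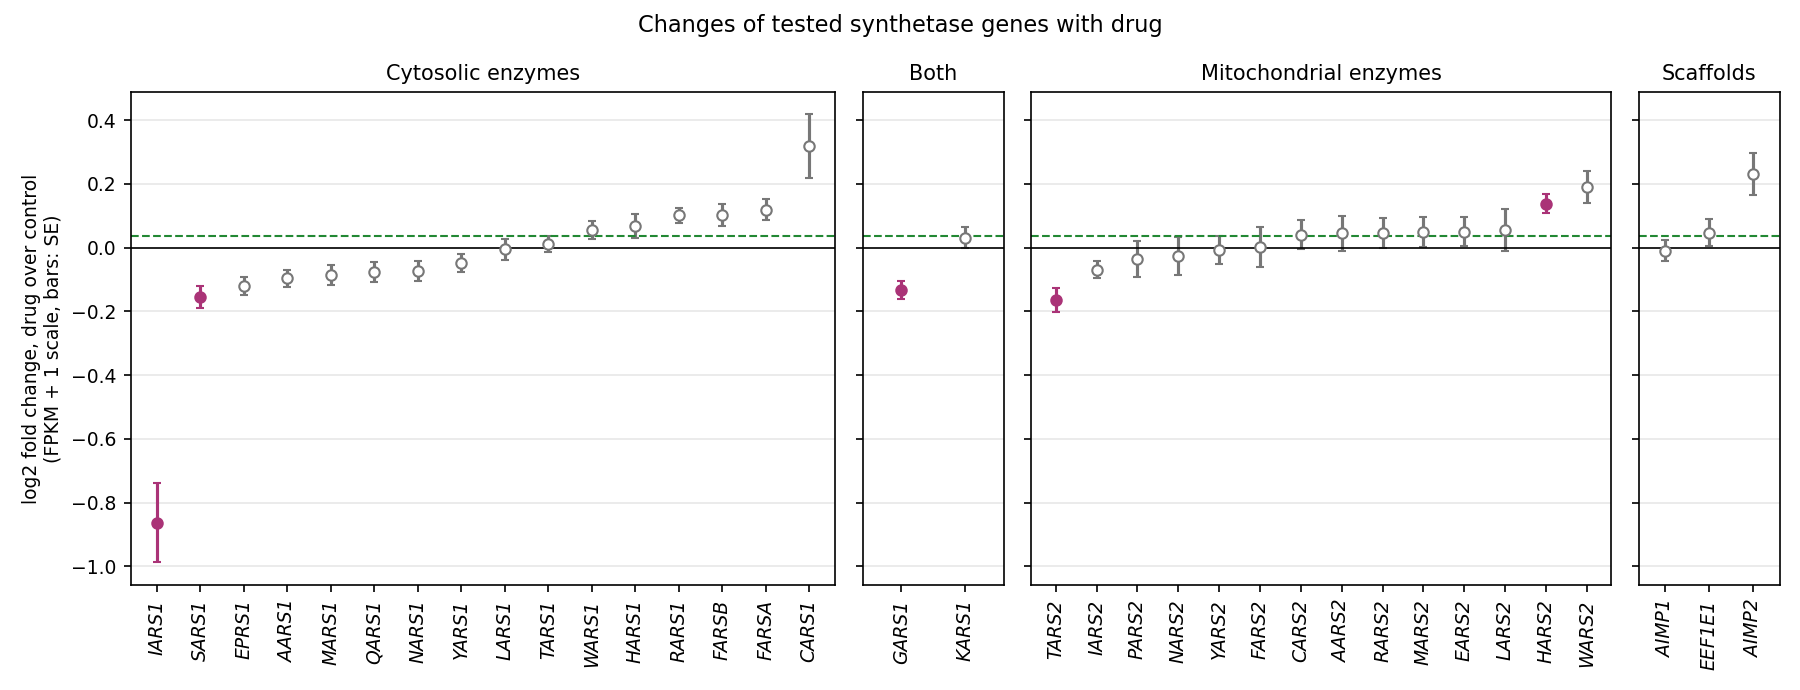
Log2 fold change of drug over control on the FPKM + 1 scale for 35 of the 37 tested genes, in 4 panels by class, with bars for the standard error of limma; filled points passed at an adjusted p under 0.05 and the dashed line is the median of all tested genes, 0.036. IARS1 lies at -0.86, far below the other genes drawn, which lie between -0.16 and 0.32.

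Other tests and scalings gave other splits. By edgeR on recovered reads 8 of the 37 were called lower (IARS1, TARS2, SARS1, GARS1, EPRS1, AARS1, MARS1 and IARS2) and 1 higher (CARS1), beside 11.0% lower and 8.37% higher over all genes, 19.4% in all. DESeq2 on the same reads called 10 lower, those 8 with NARS1 and QARS1, and CARS1 higher, beside 9.88% lower and 6.89% higher over all genes, 16.8% in all. Of the 5 limma calls 4 were made in the same direction by edgeR, and HARS2 was not (edgeR adjusted p = 0.0894). The authors' deposited table called 9 of them lower, adding NARS1 to those 8, and CARS1 higher, beside 4.03% lower and 3.18% higher over its 26603 genes, 7.21% in all. Unlike the other shares, this one includes genes below the filter on low values, so it is not a like background for the members. With each library of FPKM divided by its median-of-ratios size factor, limma called 6 lower and 0 higher, beside 7.45% and 4.84% of all genes, 12.3% in all. Drug values lay above both control values for 12 of the 37 members and below both for 13, against 40.3% and 23.3% of all tested genes.

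IARS1 (ENSG00000196305) encodes the cytosolic isoleucine enzyme, a member of the multi-synthetase complex, and lies on the minus strand of chromosome 9 at 92210207 to 92293756 (GENCODE 29, GRCh38). It was at 6.03 and 6.93 FPKM in the controls against 2.67 and 3.60 FPKM with drug, with 3859 and 6002 reads in the controls against 2407 and 3123 with drug. The groups did not overlap, but the drug libraries differed from each other 1.35-fold. Outside IARS1, CARS1 and AIMP2, the tested members differed at most 1.14-fold between replicate libraries. The control mean was 6.48 ± 0.636 FPKM and the drug mean 3.13 ± 0.661 FPKM (SD, n = 2 each), a fall that passed (limma log2 fold change -0.86 ± 0.12 SE, adjusted p = 0.0174). With edgeR on recovered reads the log2 fold change of IARS1 was -1.09 (adjusted p = 0.000354). The limma call was lost without control 1 (adjusted p = 0.0575) or control 2 (0.0682) and without the filter on low values (0.0886). A fit with a library left out assumes that the lone library of its group varies like the other group. Of the 5 other protein-coding genes within 500 kb of IARS1 that have values here, the 3 that were tested (SPTLC1, NOL8 and BICD2) did not pass. IARS2, the mitochondrial counterpart, gave a log2 fold change of -0.07 ± 0.03 SE (limma adjusted p = 0.139) and was called lower by edgeR (adjusted p = 0.0394).

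SARS1, the cytosolic serine enzyme gene (chromosome 1, 109213918 to 109238169, plus strand), was at 47.3 and 45.3 FPKM in the controls against 40.9 and 42.1 FPKM with drug. Both drug values lay below both controls, and the mean fell by 10.4% (limma log2 fold change -0.15 ± 0.03 SE, adjusted p = 0.0454). GARS1, the glycine enzyme gene of both compartments (chromosome 7, 30594681 to 30634033, plus strand), was at 26.3 and 26.1 FPKM in the controls against 23.7 and 24.0 FPKM with drug. Its groups were also separate, and the mean fell by 9.06% (limma log2 fold change -0.13 ± 0.03 SE, adjusted p = 0.0428). TARS2, the mitochondrial threonine enzyme gene (chromosome 1, 150487364 to 150507609, plus strand), was at 12.4 and 13.0 FPKM in the controls against 11.1 and 11.3 FPKM with drug. It fell by 11.7% (limma log2 fold change -0.16 ± 0.04 SE, adjusted p = 0.0498), just inside the threshold. HARS2, the mitochondrial histidine enzyme gene (chromosome 5, 140691426 to 140699318, plus strand), was at 14.6 and 14.8 FPKM in the controls against 16.4 and 16.2 FPKM with drug. It rose by 10.8% (limma log2 fold change 0.14 ± 0.03 SE, adjusted p = 0.0484). HARS2 lost its call with median-of-ratios scaling (adjusted p = 0.116). SARS1, GARS1, TARS2 and HARS2 each lost the limma call whichever library was left out (adjusted p from 0.0728 to 0.166), and all 4 without the filter on low values (0.0887 to 0.130).

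CARS1, the cytosolic cysteine enzyme gene (chromosome 11, 3000922 to 3057613, minus strand), was at 1.27 and 1.24 FPKM in the controls against 1.61 and 2.03 FPKM with drug. Both drug libraries lay above the controls and differed from each other 1.26-fold. Its log2 fold change of 0.32 ± 0.10 SE did not pass limma (adjusted p = 0.0987). It was called higher by edgeR (log2 fold change 0.49, adjusted p = 0.0165) and in the authors' deposited table (log2 fold change 0.5002, adjusted p = 0.0022376). Its neighbour NAP1L4 was at 3.99 and 5.67 FPKM in the controls against 9.40 and 0.840 FPKM with drug, so the drug libraries disagreed for that gene; its part in the CARS1 value was not tested. The other tested neighbour, ZNF195, was at 3.02 and 2.84 FPKM in the controls against 3.32 and 3.46 FPKM with drug (limma adjusted p = 0.127).

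**Figure D4:**
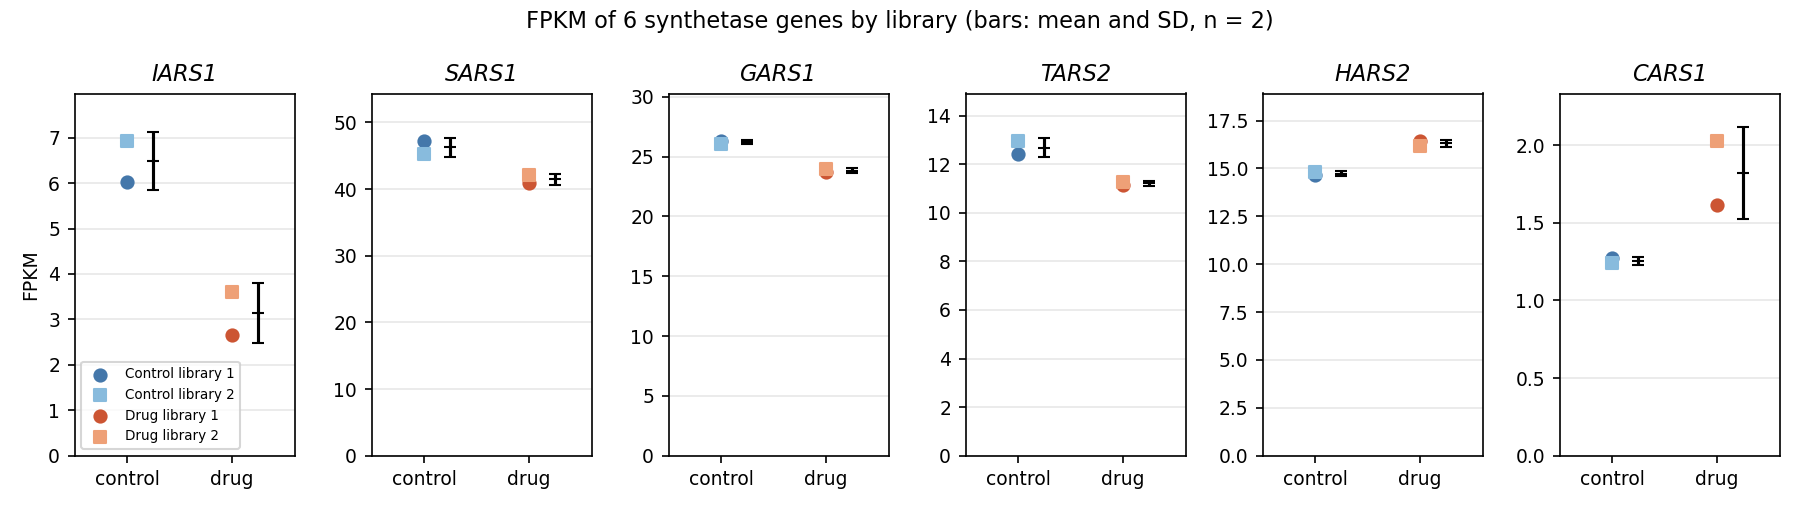
FPKM of IARS1, SARS1, GARS1, TARS2, HARS2 and CARS1 in the 4 libraries, each panel from 0, with the mean and SD of the 2 libraries of a group beside the points. IARS1 drops from 6.03 and 6.93 to 2.67 and 3.60 FPKM, while the drug libraries of SARS1, GARS1 and TARS2 lie slightly below and those of HARS2 slightly above their controls.

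The other cytosolic genes moved little and in both directions. EPRS1 gave a log2 fold change of -0.12 ± 0.03 SE (limma adjusted p = 0.0540) and RARS1, the arginine enzyme gene, 0.10 ± 0.02 SE (0.0501), both just outside the threshold. RARS1 was at 84.3 and 84.5 FPKM in the controls against 90.5 and 90.9 FPKM with drug, so its 2 groups were separate and tight. EPRS1 was called lower by edgeR (adjusted p = 0.00902). RARS1 was not called by edgeR (adjusted p = 0.213) or by limma with median-of-ratios scaling (adjusted p = 0.17). AARS1 (alanine), MARS1 (methionine), QARS1 (glutamine), NARS1 and YARS1 (tyrosine) had log2 fold changes of -0.10, -0.09, -0.08, -0.07 and -0.05, and did not pass limma. Of these, AARS1 and MARS1 were called lower by edgeR (adjusted p = 0.0129 and 0.0392), and AARS1, MARS1, QARS1 and NARS1 by DESeq2. In all 5 both drug libraries lay below both controls, as for 23.3% of all tested genes. These 5 were grouped by their negative log2 fold changes, so this is no result about them as a set. TARS1 and LARS1, for threonine and leucine, were closest to their controls in the cytosolic class, with log2 fold changes of 0.01 (TARS1) and -0.01 (LARS1) and no call by limma or edgeR. FARSA and FARSB encode the alpha and beta subunits of the same phenylalanine enzyme. FARSA was at 29.8 and 30.9 FPKM in the controls against 32.6 and 33.4 FPKM with drug, and FARSB at 18.01 and 17.94 FPKM in the controls against 19.8 and 19.0 FPKM with drug. Neither passed limma, with log2 fold changes of 0.12 ± 0.03 SE and 0.10 ± 0.03 SE (adjusted p = 0.0722 and 0.108). FARSA was the higher subunit gene as deposited, but on GENCODE 29 lengths FARSB would be, at a control mean of 36.1 against 30.3 FPKM.

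Within the multi-synthetase complex IARS1 fell, and none of the other 10 members passed limma. That is 0 of 11 higher and 1 lower, beside 7.78% and 6.02% of all genes. By edgeR 0 of the 11 were called higher and 3 lower (IARS1, EPRS1 and MARS1), beside 8.37% and 11.0% of all genes. The 7 cytosolic enzyme genes of the complex had a median log2 fold change of -0.08, against 0.03 for the 10 tested cytosolic genes outside it and 0.04 for all genes. The scaffold gene AIMP2 was at 10.97 and 12.54 FPKM in the controls against 14.04 and 13.84 FPKM with drug (limma log2 fold change 0.23 ± 0.06 SE, adjusted p = 0.0773). AIMP2 was called higher by limma without control 2 (adjusted p = 0.0400), a fit that leaves 1 control. The scaffold AIMP1 was at 10.76 and 10.78 FPKM in the controls against 10.74 and 10.63 FPKM with drug (limma log2 fold change -0.01 ± 0.03 SE, adjusted p = 0.859). EEF1E1, the other scaffold gene, was at 17.7 and 16.9 FPKM in the controls against 18.4 and 17.5 FPKM with drug (limma log2 fold change 0.05 ± 0.04 SE, adjusted p = 0.484). Sorted by catalytic class, limma called 0 of 16 tested class I genes higher and 1 lower, and 1 of 17 class II genes higher and 3 lower, beside 7.78% and 6.02% of all genes. The edgeR calls were 1 higher and 3 lower in class I and 0 higher and 4 lower in class II, beside 8.37% and 11.0% of all genes. EPRS1, which holds both kinds of domain, did not pass limma and was called lower by edgeR (adjusted p = 0.00902).

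WARS2 encodes the mitochondrial tryptophan enzyme. It was at 3.33 and 3.47 FPKM in the controls against 4.07 and 3.98 FPKM with drug (limma log2 fold change 0.19 ± 0.05 SE, adjusted p = 0.0681), and did not pass. Its cytosolic counterpart WARS1 gave a log2 fold change of 0.06 ± 0.03 SE (limma adjusted p = 0.238). Of the other mitochondrial genes, 10 (AARS2, CARS2, EARS2, FARS2, LARS2, MARS2, NARS2, PARS2, RARS2 and YARS2) had log2 fold changes from -0.04 (PARS2) to 0.05 (LARS2), and none of these 10 passed limma or edgeR. HARS2 has HARS1 as its neighbour in head-to-head orientation. HARS1 was at 6.69 and 6.59 FPKM in the controls against 6.97 and 7.06 FPKM with drug (limma log2 fold change 0.07 ± 0.04 SE, adjusted p = 0.274). In RefSeq the outermost listed starts of this pair are 84 bases apart, and the stretch between them is shown because in RefSeq both genes are read outward from it (GRCh38.p14, chr5:140691371-140691454, plus strand, no letters marked). GENCODE 29 differs: there HARS2 starts inside this stretch, and HARS1, on the minus strand, starts at 140691862 and runs through it.
HARS1 to HARS2: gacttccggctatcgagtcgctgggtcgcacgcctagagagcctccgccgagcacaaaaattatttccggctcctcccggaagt

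VARS1, the valine enzyme gene (chromosome 6, 31777518 to 31795953, minus strand), was below the filter and was not tested. It had 1 and 8 reads in control and 1 and 4 reads in drug libraries, at 0.00596 and 0.0352 FPKM and 0.00422 and 0.0176 FPKM. The 23 other protein-coding genes in the table within 500 kb of it were also low: none reached 1 FPKM in either group and the highest value in any library was 0.753 FPKM. Over the whole table, 63.0% of protein-coding genes reached 1 FPKM. VARS1 lies in the major histocompatibility region. Why the region reads low was not tested.

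Promoters were read for the 32 members with an entry in the RefSeq table (GRCh38.p14), as the 250 bases before the outermost listed start. ATF4, paired with a C/EBP factor, is known to bind sites that hold TGATGNAA, and these letters were searched on both strands. They occurred in 3 of the 32 members (AARS1, IARS1 and YARS2), or 9.38%, and in 3.19% of all 27305 genes in that table. GARS1 had a match before an inner start that lies downstream of its outermost start. The letters CACGTG, an E-box that MYC binds, occurred in 2 of the 32 (IARS1 and MARS2), or 6.25%, against 6.46% of all genes; this motif and TGATGNAA do not overlap in IARS1. AIMP2 and EARS2 had a CACGTG match before an inner start only. The 3 windows with TGATGNAA are shown because one belongs to the member with the largest fall and the others to members that did not pass limma. Capitals mark the match, which in AARS1 and IARS1 lies on the opposite strand. The match spans 13 to 6 bases before the RefSeq start in IARS1, 187 to 180 in AARS1 and 197 to 190 in YARS2. GENCODE 29 differs for IARS1: there the gene starts at 92293756, inside this window, and the match lies within the gene. They are windows chr9:92293698-92293947 (minus strand), chr16:70289507-70289756 (minus) and chr12:32755898-32756147 (minus).
IARS1: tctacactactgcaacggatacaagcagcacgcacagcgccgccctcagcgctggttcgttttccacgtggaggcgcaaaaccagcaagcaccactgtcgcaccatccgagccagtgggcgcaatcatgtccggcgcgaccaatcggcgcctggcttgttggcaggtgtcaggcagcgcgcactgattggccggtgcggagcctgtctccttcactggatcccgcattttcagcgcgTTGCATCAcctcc
AARS1: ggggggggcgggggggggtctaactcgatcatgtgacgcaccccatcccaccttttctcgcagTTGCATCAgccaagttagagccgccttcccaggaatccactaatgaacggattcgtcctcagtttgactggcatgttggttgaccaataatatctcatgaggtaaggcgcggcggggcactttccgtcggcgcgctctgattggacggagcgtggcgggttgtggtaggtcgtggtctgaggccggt
YARS2: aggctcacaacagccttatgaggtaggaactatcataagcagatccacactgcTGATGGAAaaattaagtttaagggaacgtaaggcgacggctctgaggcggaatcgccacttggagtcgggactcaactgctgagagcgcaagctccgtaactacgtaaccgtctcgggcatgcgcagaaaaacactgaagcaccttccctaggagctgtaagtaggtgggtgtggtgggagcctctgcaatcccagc
A match of letters is a description and does not show binding. Of the 3 genes IARS1 fell, AARS1 had a log2 fold change of -0.10 ± 0.03 SE (limma adjusted p = 0.0785), and YARS2 was at 13.8 and 14.5 FPKM in the controls against 14.4 and 13.7 FPKM with drug, which overlapped.

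Genes that work beside the synthetases were read from lists. In the amino acid response list, ATF4 and genes of its pathway, 2 of 29 tested rose and 8 fell by limma, beside 7.78% and 6.02% of all genes, with a median log2 fold change of -0.08. By edgeR 2 of the 29 were called higher and 13 lower, beside 8.37% and 11.0% of all genes. ATF4 itself was at 142 and 145 FPKM in the controls against 132 and 131 FPKM with drug (limma log2 fold change -0.13 ± 0.02 SE, adjusted p = 0.0347). The 4 largest falls were DDIT4, an inhibitor of mTORC1 signalling (log2 fold change -0.82, limma adjusted p = 0.000649), STC2, a secreted glycoprotein gene (-0.77, adjusted p = 0.00799), PHGDH, the first enzyme of serine synthesis (-0.56, adjusted p = 0.01503), and SLC7A11, the cystine transporter gene (-0.33, adjusted p = 0.0321). The 2 that rose were ATF5 (0.31, adjusted p = 0.0347) and NUPR1 (0.18, adjusted p = 0.0464). ASNS, the asparagine synthetase gene, did not reach the filter and was at 0.573 and 0.487 FPKM in the controls against 0.436 and 0.618 FPKM with drug. EIF2AK4, whose kinase GCN2 senses uncharged tRNA, gave a log2 fold change of 0.10 ± 0.05 SE (limma adjusted p = 0.193).

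Of all tested genes limma called 7.78% higher and 6.02% lower, and edgeR 8.37% and 11.0%. The lists that follow are short, and their counts are no result about the lists. Partners in tRNA charging, such as deacylases and the tRNA exporter XPOT, gave 0 higher and 0 lower of 7 tested by limma, and 0 higher and 1 lower by edgeR. The list includes TARS3, a cytosolic threonine enzyme gene outside the symbol rule, which was at 9.66 and 9.36 FPKM in the controls against 9.005 and 8.232 FPKM with drug (limma adjusted p = 0.159). Mitochondrial tRNA partners, which process, modify or correct mitochondrial tRNAs, gave 0 calls of 13 tested by limma and by edgeR, with a median log2 fold change of 0.08. Of 8 mitochondrial initiation and elongation factor genes 1 was called higher by edgeR and 1 rose by limma, the initiation factor gene MTIF2, at 34.5 and 36.0 FPKM in the controls against 41.0 and 42.7 FPKM with drug (limma log2 fold change 0.24 ± 0.04 SE, adjusted p = 0.0193). Of 4 tested cytosolic elongation factor genes edgeR called 2 lower, and 1 fell by limma, EEF2, which moves the ribosome along the message, at 484 and 476 FPKM in the controls against 427 and 440 FPKM with drug (limma log2 fold change -0.15 ± 0.03 SE, adjusted p = 0.0342).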

How the data were processed

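RNA of 4 PLC8024 libraries was extracted with trizol and made into stranded mRNA libraries, per the labels' protocols; bcl2fastq and build hg38 come from the submitters' processing notes. Which aligner, read counter, gene annotation and test the authors used is not given in the sources used. The 4 library columns are deposited FPKM values, a unit read from the values because the header names none. The group columns are deposited means of normalized read counts, a signal per the file headers. The log2 fold changes and the p-values and adjusted p-values of drug against control are the authors' own, per the file headers.

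The test was limma 3.58.1 with a mean trend, on log2(FPKM + 1), over genes whose mean reached 1 FPKM in either group. Whole reads were recovered from FPKM and group means, where 100% came out whole (tolerance 0.1 read), and tested with edgeR 4.0.16 and DESeq2 1.42.0 as alternatives. Totals were 28526098 and 38611635 reads in control and 40279560 and 38685856 in drug libraries. Genes with 2 reads were 2.28 to 3.32 times as many as genes with 1 read, so reads may not be independent fragments, and read-based p-values may then be too small. Other alternatives were pseudocounts of 0.1 and 0.01, no filter, median-of-ratios scaling, leaving out each library and a replicate block; GENCODE 29 lengths were added after the data were seen. Members, lists and motifs were chosen with earlier results of these data known. Values by library are printed for called members, for the 4 largest log2 fold changes and the highest and lowest level of each class, and up to 4 called genes per partner list and direction are named; RARS1, FARSA, FARSB, HARS1, YARS2, TARS3, ASNS, ATF4 and EIF2AK4 and members given by log2 fold change alone were added after their values were seen. Scripts were tested on simulated data. R 4.3.3, Python 3.11.15, pandas 2.3.3 and matplotlib 3.10.9 were used. A few genes enter the fits, counts and class sums but are not reported here by name or drawn.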

Additional observations from a re-analysis of the deposited data

How the results depend on the processing

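With 2 libraries a group, most synthetase calls lay near the threshold. Genes called by limma numbered 1549 over the table, 384 without the filter, 925 with the replicate block and 420 to 613 with a library left out. The count of members called higher went from 1 to 0 without the filter, with median-of-ratios scaling and with the replicate block, and was 0 to 1 with a library left out. The count called lower went from 4 to 0 without the filter, 1 with the replicate block, 8 by edgeR, 10 by DESeq2 and 9 in the authors' deposited table, and was 0 to 1 with a library left out. The cause was not tested. Under the replicate block the 1 call was IARS1 (adjusted p = 0.0164). Replicate numbers are not said to mark a shared batch, and the differences between libraries 1 and 2 in control and in drug correlated across genes at 0.028. A correlation over all genes cannot show whether libraries of the same number share a batch. IARS1 had a negative log2 fold change under all 12 alternatives, from -1.09 to -0.70. The cytosolic median of -0.006 became -0.043 with median-of-ratios scaling, -0.047 by edgeR and DESeq2 and -0.04 in the authors' deposited table, and ran from -0.014 to 0.002 with a library left out. The mitochondrial median of 0.041 became 0.006 with median-of-ratios scaling and by edgeR, 0.005 by DESeq2 and 0.013 in the authors' deposited table, and ran from 0.004 to 0.053 with a library left out. KARS1, not called in any setting, turned from 0.03 to -0.009 with median-of-ratios scaling, edgeR and DESeq2, to -0.002 in the authors' deposited table, and ran from -0.001 to 0.064 with a library left out. The ratio of cytosolic to mitochondrial sums, for control 1, control 2, drug 1 and drug 2, was 5.07, 4.91, 4.83 and 4.85 without the most abundant gene of each class, 3.54, 3.52, 3.51 and 3.498 with GARS1 and KARS1 added to the cytosolic sum, and 3.03, 3.01, 2.95 and 2.96 on GENCODE 29 lengths.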

Other observations

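Cytosolic elongation factor 1, the carrier of charged tRNA to the ribosome and a partner of the valine enzyme, had subunit genes with uneven values. EEF1A1, the carrier itself, was steady at 1083 and 1085 FPKM in the controls against 1094 and 1093 FPKM with drug. EEF1B2, an exchange subunit gene, was at 2.20 and 2.27 FPKM in the controls against 2.18 and 105.1 FPKM with drug, so only drug library 2 was high and the gene did not pass limma (adjusted p = 0.332). EEF1D, another exchange subunit gene, was at 1.68 and 0.447 FPKM in the controls against 0.238 and 0.407 FPKM with drug (limma adjusted p = 0.255). EIF5A, an abundant factor gene in most growing cells, was listed at 0 and 0.0193 FPKM in the controls against 0.0370 and 0 FPKM with drug. These 4 genes were named after their values were seen.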
